A study of Mus musculus with 17 samples.

Results

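Bone marrow progenitors of mice that lacked both copies of Tet2 (Tet2 KO, genotype URE+/+;Tet2-/-) were compared with those of mice that had lost 1 copy (Tet2 het, genotype URE+/+;Tet2+/-). The comparison took every library with either genotype label: 3 Tet2 KO and 3 Tet2 het libraries, 6 of the 17 in the series. Both groups carried 2 intact copies of the URE, an upstream enhancer of Spi1, the gene for the transcription factor PU.1, and both were labelled Normal in disease state. The series also holds 3 wild-type libraries (WT, URE+/+;Tet2+/+), 3 URE het libraries (URE[delta]/+;Tet2+/+) and 5 libraries with both lesions. These, here called the compound mutants, were 2 URE[delta]/+;Tet2+/- libraries (het at both loci) and 3 URE[delta]/+;Tet2-/- libraries (URE het with Tet2 KO), and were all labelled acute myeloid leukaemia. Cells had been sorted as positive for cKit and negative for lymphoid and erythroid surface markers after lysis of red cells, and polyadenylated RNA was sequenced by a low-input protocol. The labels give no age, sex or strain, do not say how the Tet2 allele was made or in which cells it was lost and do not say whether libraries come from different mice. Hence the p-values measure the spread between these libraries, which may be technical.

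TET2 is a dioxygenase that oxidises 5-methylcytosine, the first step of active DNA demethylation, and its loss leaves more methylated cytosine at enhancers of blood cells. Loss of TET2 in stem and progenitor cells is among the common lesions of clonal haematopoiesis, in which 1 clone contributes an enlarged share of blood cells without leukaemia. Since mutations seen in people often hit 1 copy, a comparison of KO with het cells asks what loss of the remaining copy adds.

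Gene counts ran from 21.1 M to 36.7 M in the Tet2 het and from 26.0 M to 33.2 M in the Tet2 KO libraries (M, mega). The 2 mitochondrial ribosomal RNAs took 24.6% to 36.6% of the counts in Tet2 KO and 28.8% to 37.8% in Tet2 het. The sample titles carry numbers, and libraries numbered 1 to 7 differed from those numbered 8 to 17 in 6655 of 18282 genes (36.4%) across the 12 Normal libraries. Each group has 1 library from the first range (replicate 1) and 2 from the second (replicates 2 and 3), so the range was a term of the model. What the range stands for is not given in the labels. WT has replicates 1 and 2 in the first range and replicate 3 in the second, so WT levels in CPM are not balanced for it. Xist and Y-linked transcripts read Tet2 KO replicates 1, 2 and 3 as male, female and male, and the Tet2 het replicates as female, male and female. Levels below are CPM, counts per 1 M of library total after trimmed-mean (TMM) scaling, and differences are log2 fold changes of Tet2 KO over Tet2 het ± the standard error (SE) of the edgeR quasi-likelihood model.

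Only 1 gene passed the test. Igkv1-110, a variable segment of the immunoglobulin kappa light chain locus, fell in Tet2 KO by 3.62 ± 0.39 on the log2 scale (95% interval -4.48 to -2.77, adjusted p = 0.0101, edgeR quasi-likelihood test with Benjamini-Hochberg adjustment). That is 1 of 18282 genes tested, or 0.00547%. No gene was called higher, where 850 genes had an unadjusted p under 0.05, DESeq2 called 25 and limma voom called 0. At an unadjusted p of 0.05, 1856 genes (10.2%) passed, 850 higher (4.65%) and 1006 lower (5.5%), where 914 are expected by chance alone. Without the term for title range 844 passed that threshold. The 2 groups did not overlap in CPM for 829 genes that were higher (4.53%) and 1112 that were lower (6.08%). The median SE over all genes was 0.2506 and the median absolute difference 0.2214, so a typical gene differed by less than its error.

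**Figure D1:**
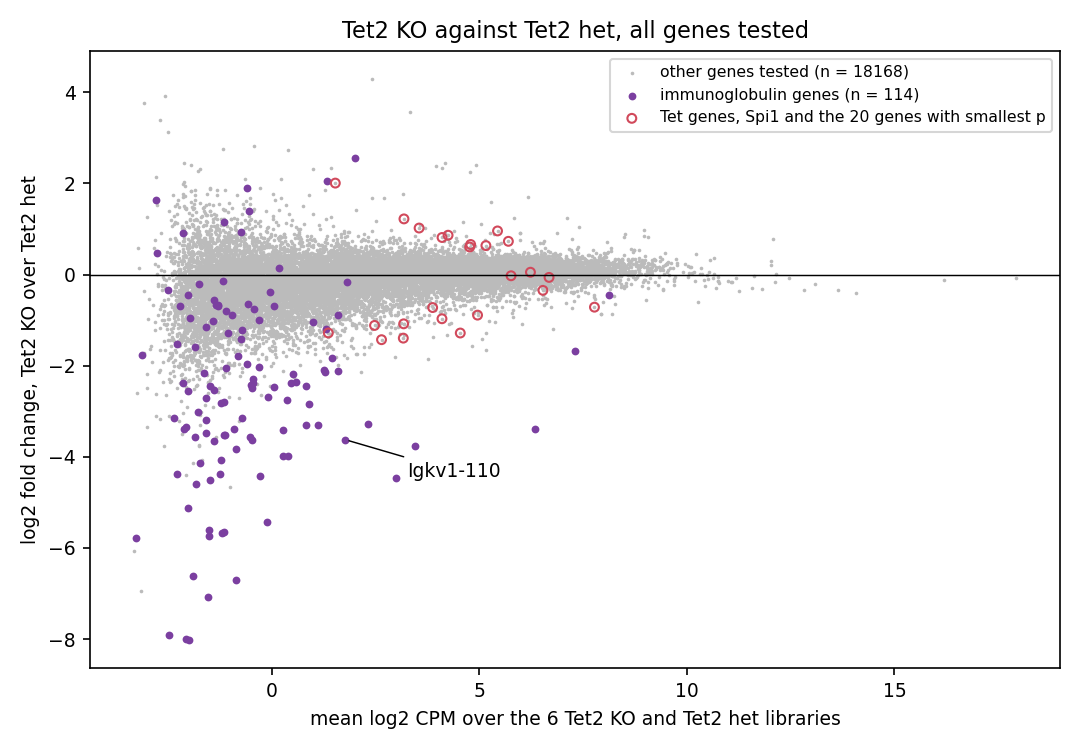
Log2 fold change of Tet2 KO over Tet2 het (vertical axis) against the mean log2 CPM of the 6 libraries (horizontal axis) for the 18282 genes tested. Each grey point is a gene, purple points are the 114 immunoglobulin genes, and open red circles are the Tet genes, Spi1 and the 20 genes with the smallest p by the naming rule. Most purple points lie below 0, and Igkv1-110, the only gene called, lies at -3.62.

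The variable exon of Igkv1-110 is given beside 2 relatives from the same family, since reads from such segments can be shared between near-identical copies. Sequences are the first 180 of 313 bases of exon 2 in GENCODE vM21 on GRCm38, 5′ to 3′ on the plus strand, and capitals mark bases that differ from Igkv1-110.
Igkv1-110, chr6:68270955-68271134: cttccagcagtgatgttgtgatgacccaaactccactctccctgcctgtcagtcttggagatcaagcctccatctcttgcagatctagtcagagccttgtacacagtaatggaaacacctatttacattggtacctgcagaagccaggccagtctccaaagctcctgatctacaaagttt
Igkv1-117, chr6:68121515-68121694: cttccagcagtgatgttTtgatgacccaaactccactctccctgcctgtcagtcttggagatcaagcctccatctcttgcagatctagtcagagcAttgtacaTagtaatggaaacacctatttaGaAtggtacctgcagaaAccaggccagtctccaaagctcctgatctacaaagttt
Igkv1-135, chr6:67610196-67610375: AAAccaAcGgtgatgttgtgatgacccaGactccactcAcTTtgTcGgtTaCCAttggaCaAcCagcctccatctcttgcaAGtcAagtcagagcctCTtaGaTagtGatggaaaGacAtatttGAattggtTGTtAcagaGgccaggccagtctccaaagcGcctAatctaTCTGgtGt
Over the whole exon Igkv1-117 differs from Igkv1-110 at 10 bases (96.8% identity), of which 6 lie in the stretch shown, and Igkv1-135 differs at 62 (80.2% identity). Of 64 kappa variable segments compared with Igkv1-110, 2 reached at least 90% identity: Igkv1-117, which had 0 counts in all 12 Normal libraries, and Igkv1-122 (93.3%). The authors' handling of reads that map to more than 1 place was not given in the sources used here, so the count of Igkv1-110 may hold reads of such copies.

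The level of Igkv1-110 was 1.52, 0.992 and 0.528 CPM in the 3 Tet2 KO libraries and 23.3, 7.53 and 8.72 CPM in the 3 Tet2 het libraries. Every Tet2 KO library lay below every Tet2 het library, and the 3 WT libraries, at 4.02, 5.81 and 5.94 CPM, lay between the groups. The URE het libraries, at 4.05, 2.21 and 1.55 CPM, also lay between them, the lowest close to Tet2 KO replicate 1. The log2 difference was -3.88 between the single libraries of title range 1 to 7 and -3.37 between the pairs of range 8 to 17. Without Tet2 KO replicate 1 the difference was -3.71 and the adjusted p 0.0829. Without Tet2 het replicate 1 they were -3.25 and 0.0534, and without Tet2 KO replicate 3 they were -3.40 and 0.104. The call was also lost without the term for title range (adjusted p = 0.312) and in the fit of all 17 libraries with that term (adjusted p = 0.970). In the compound mutants, scaled over all 17 libraries, Igkv1-110 stood at 0.085, 0.000 and 0.544 CPM with Tet2 KO and at 0.813 and 0.552 CPM with Tet2 het.

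Igkv1-110 was one of many immunoglobulin transcripts at lower levels in Tet2 KO. Immunoglobulins are made by B cells and, in far larger amounts, by the antibody-secreting plasma cells derived from them. Of 245 immunoglobulin genes in the annotation, a group chosen after values were seen, 114 passed the filter on low counts. The log2 fold change was below 0 in 104 of the 114, with a median of -2.44, against -0.01 over all genes. An unadjusted p under 0.05 was reached by 50 (43.9%, against 10.2% of all genes), all 50 lower. In 48 the groups did not overlap, with Tet2 KO lower, as in 6.08% of all genes. Only Igkv1-110 passed the adjusted test with edgeR, while DESeq2 called 18, all lower. The sign was below 0 in both title ranges for 93 of the 114 (81.6%, against 31.9% of all genes). Because genes that passed the filter through the Tet2 het libraries alone had to differ, the count describes these libraries and is not a test. In bulk RNA, fewer cells of a type and less RNA per cell cannot be told apart.

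Among constant regions, which carry the antibody class, all 11 measured genes were below 0. Igha, the IgA heavy chain, stood at 104, 13.3 and 12.5 CPM in Tet2 KO and at 1265, 115 and 114 CPM in Tet2 het. The groups did not overlap, and replicate 1 was the highest library of each. The log2 difference was -3.39 ± 0.76 with an adjusted p of 0.376. It passed in the fit of the 6 libraries alone with the title range, in the fit of libraries 8 to 17 and with DESeq2. Ighg2c, an IgG2 heavy chain, gave 1.75, 2.88 and 1.08 CPM in Tet2 KO against 96.4, 40.4 and 10.7 CPM in Tet2 het (log2 difference -4.47 ± 1.07, adjusted p = 0.398). Ighg2b gave 6.58, 3.14 and 1.08 CPM against 103, 26.3 and 25.4 CPM. For both IgG2 genes no library of one group reached the other. WT levels of Ighg2c, at 28.2, 17.6 and 60.5 CPM, lay within the range of the Tet2 het libraries.

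The IgM heavy chain and the kappa constant region, carried also by naive B cells, did not separate the groups. Ighm stood at 228, 109 and 519 CPM in Tet2 KO and at 374, 160 and 622 CPM in Tet2 het, a log2 difference of -0.44 ± 0.91. Igkc stood at 77.7, 31.3 and 208 CPM against 493, 183 and 330 CPM, a log2 difference of -1.69 ± 0.98. In both genes a Tet2 KO library exceeded a Tet2 het library. Ighd, the IgD heavy chain, did separate the groups, at 1.29, 1.39 and 1.35 CPM in Tet2 KO against 3.32, 2.39 and 2.63 CPM. Its log2 difference was -1.05 ± 0.44 (adjusted p = 0.468, edgeR). Of the 11 constant genes, 6 had groups that did not overlap, all lower, as in 6.08% of all genes. The lambda genes Iglc1 and Iglc2 were among them. Summed over all immunoglobulin genes, the level was 495, 195 and 938 CPM in Tet2 KO and 2857, 641 and 1319 CPM in Tet2 het. It was 483, 647 and 1591 CPM in WT and 887, 300 and 271 CPM in URE het, so low sums were not particular to Tet2 KO. The sums of Tet2 KO and Tet2 het overlapped, and Tet2 het replicate 1 stood highest of all. The median of the 114 immunoglobulin genes against WT was 0.82 for Tet2 het and -1.37 for Tet2 KO, comparisons that share the WT libraries. Of the 114, 93 were above 0 in Tet2 het over WT and 18 in Tet2 KO over WT.

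Variable segments gave 90 of 100 below 0, and 44 of them reached an unadjusted p under 0.05. Over all genes 5.5% were lower at that p. The limit set by the filter on low counts, given above for the 114, holds for these counts too. Igkv1-135 stood at 0.152, 0.859 and 0.147 CPM in Tet2 KO and at 3.57, 4.49 and 4.32 CPM in Tet2 het (log2 difference -3.41 ± 0.62, adjusted p = 0.194). The Tet2 het values of Igkv1-135 were close to one another and to WT, at 3.29, 2.57 and 4.50 CPM. No count of Ighv2-6 was seen in the 3 Tet2 KO libraries, against 0.695, 0.915 and 1.17 CPM in Tet2 het. Taking 3 counts over the group as the floor, Ighv2-6 was at least 28.0-fold lower in Tet2 KO. The WT libraries, at 0, 0.0306 and 0.235 CPM, also lay below every Tet2 het library. In all, 4 tested immunoglobulin genes had 0 counts in every Tet2 KO library, and with these at their bounds the median of the 114 stayed at -2.44.

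Other genes of antibody-secreting cells, again listed after values were seen, were lower in 9 of 13 measured, with a median of -1.01. Jchain, which joins IgA and IgM into polymers, stood at 9.43, 2.48 and 12.9 CPM in Tet2 KO and at 64.8, 16.2 and 19.8 CPM in Tet2 het (-1.85 ± 0.77, adjusted p = 0.489). Derl3, which acts in disposal of misfolded proteins from the endoplasmic reticulum, stood at 0.266, 0.364 and 0.440 CPM against 1.19, 1.21 and 1.06 CPM (-1.72 ± 0.45, adjusted p = 0.367). The groups did not overlap for either gene, and none of the 13 passed the test with edgeR or voom. DESeq2 called 1, Irf4, a transcription factor needed for plasma cells. An unadjusted p under 0.05 was reached by 6 (46.2%, against 10.2% of all genes), 5 of them lower. The higher one was Tnfrsf13b, a receptor for B cell survival factors, at 0.40. Xbp1, Txndc5 and Fkbp11 were also above 0, at 0.18 ± 0.13, 0.18 ± 0.19 and 0.39 ± 0.30. Xbp1 stood at 77.3, 120 and 105 CPM in Tet2 KO and at 70.1, 106 and 89.0 CPM in Tet2 het.

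**Figure D2:**
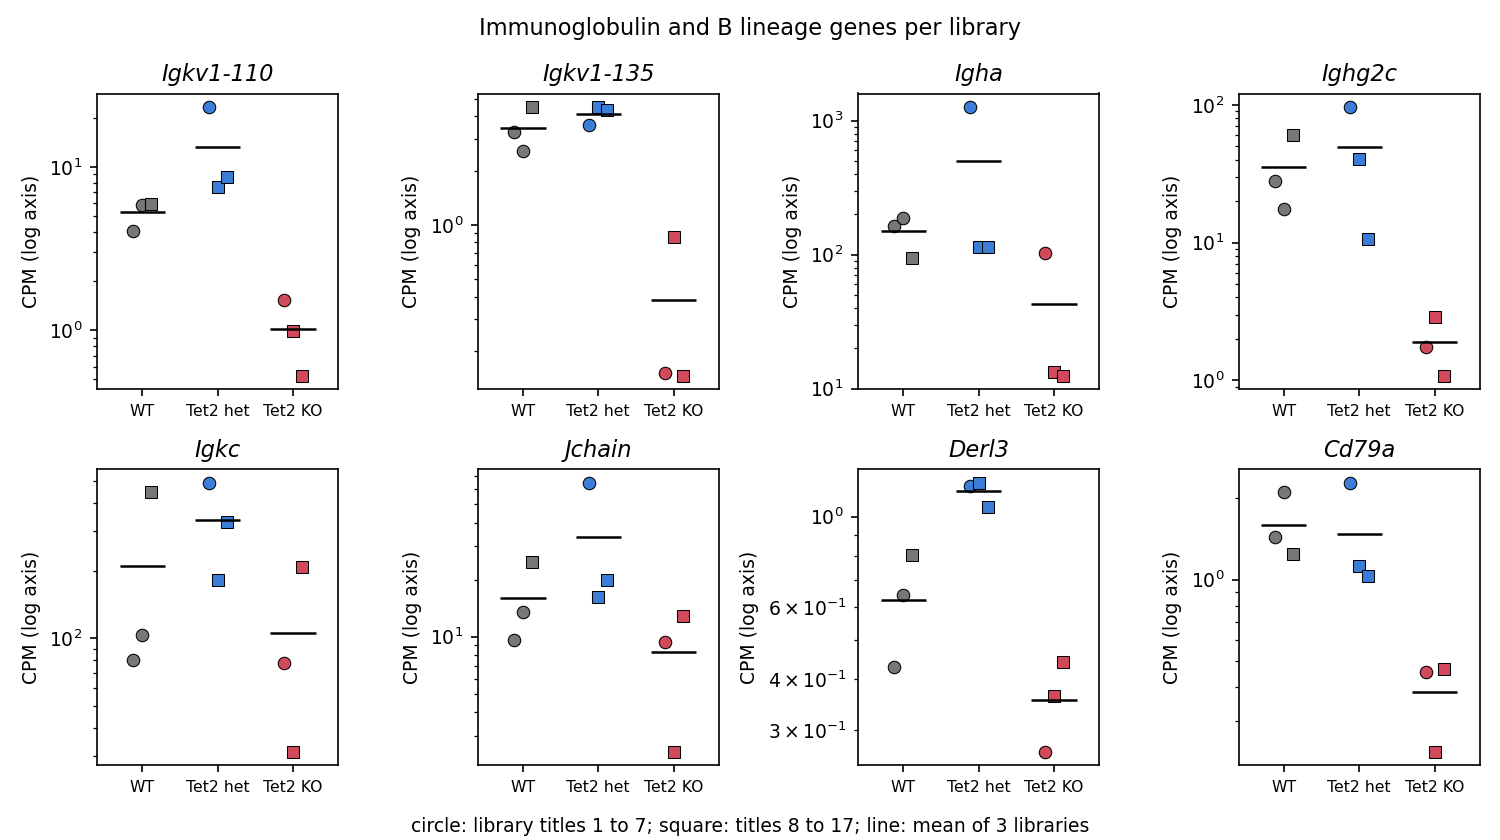
CPM per library on a log axis for 6 immunoglobulin or antibody-secreting genes, the joining chain among them, and for Derl3 and Cd79a, in WT (grey), Tet2 het (blue) and Tet2 KO (red), with a line at the mean of 3 libraries. Circles are titles 1 to 7 and squares titles 8 to 17. Tet2 het replicate 1 is the highest point of the Igha panel at 1265 CPM. Tet2 KO and Tet2 het overlap only in the Igkc panel.

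Genes of the B lineage other than the immunoglobulins were also at lower levels in Tet2 KO. Of 20 members, 18 were below 0 and the median was -1.07; 9 were lower and 1 higher at an unadjusted p of 0.05, where 5.5% of all genes were lower. In 8 lower members the groups did not overlap, as in 6.08% of all genes. None of the 20 passed with edgeR or voom, and DESeq2 called 3: Cd79a, Dntt and Fcrla. Cd79a, a signalling subunit of the B cell receptor, stood at 0.456, 0.231 and 0.469 CPM in Tet2 KO and at 2.28, 1.12 and 1.03 CPM in Tet2 het (-1.86 ± 0.41, adjusted p = 0.293). Its WT levels, 1.44, 2.11 and 1.24 CPM, matched Tet2 het and lay above all 3 Tet2 KO libraries. Dntt, which adds bases at the joints of rearranging receptor genes, stood at 17.7, 6.12 and 14.2 CPM against 29.6, 22.1 and 41.1 CPM (-1.33 ± 0.42, adjusted p = 0.427). Rag2, a subunit of the recombinase, gave 1.33, 1.22 and 1.26 CPM against 2.33, 1.98 and 2.86 CPM (-0.91 ± 0.28, adjusted p = 0.41). The groups were apart for Dntt and Rag2 too.

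Il7r, the interleukin 7 receptor of early lymphoid cells, differed by -1.20 ± 0.37, but by only -0.15 in title range 1 to 7 against -1.69 in range 8 to 17. Ly6d, a mark of lymphoid progenitors set towards B cells, likewise differed by -0.33 in the first range and by -2.58 in the second. Across the B cell list 12 of 20 members were below 0 in both ranges (60.0%). Siglecg, an inhibitory receptor of B cells, went the other way at 39.4, 30.3 and 27.9 CPM in Tet2 KO and 25, 19.9 and 21.8 CPM in Tet2 het (0.54 ± 0.17, adjusted p = 0.41). The median of the list against WT was -0.05 for Tet2 het and -1.19 for Tet2 KO, comparisons that share the WT libraries.

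T and natural killer cell genes had the same median, -1.07, with 15 of 17 below 0. At an unadjusted p under 0.05, 7 were lower, against 5.5% of all genes, and 0 passed with edgeR, DESeq2 or voom on the 12 Normal libraries. The lower level lay mainly in range 8 to 17, and 7 of 17 (41.2%, against 31.9% of all genes) were below 0 in both ranges. The summed level of the list was 30.04, 10.88 and 10.03 CPM in Tet2 KO and 26.8, 32.1 and 36.6 CPM in Tet2 het, so Tet2 KO replicate 1 lay above Tet2 het replicate 1. Il2rb, a receptor chain for interleukins 2 and 15, showed this at 2.47, 0.595 and 0.498 CPM against 1.93, 4.58 and 4.40 CPM. It passed with edgeR when libraries 8 to 17 were fitted alone. Tcf7, a transcription factor of T cell and innate lymphoid precursors, stood at 1.48, 1.82 and 1.5 CPM against 2.33, 4.10 and 4.23 CPM (-1.11 ± 0.29, adjusted p = 0.367), with the groups apart. Cd3e and Cd8a, defining markers of T cells, stayed under 1 CPM in every Normal library and were not tested.

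Genes of the MHC class II pathway, by which professional antigen-presenting cells show peptides to helper T cells, had a median of -0.98. Of 10 members 9 were below 0, 5 had an unadjusted p under 0.05, all lower, and 2 had groups that did not overlap. Over all genes 5.5% were lower at that p and 6.08% were lower without overlap. None of the 10 passed with edgeR or voom, and DESeq2 called Ciita and H2-Ab1. Ciita, the master activator of class II transcription, stood at 4.98, 0.992 and 1.23 CPM in Tet2 KO and at 12.3, 2.66 and 8.29 CPM in Tet2 het (-1.84 ± 0.45, adjusted p = 0.359). H2-Ab1, a class II beta chain, stood at 34.2, 3.37 and 6.30 CPM against 61.2, 9.83 and 23.6 CPM (-1.37 ± 0.43, adjusted p = 0.427). Replicate 1 was the highest library of each group for both genes, so the groups overlapped although Tet2 KO was lower within each title range. Cd74, the invariant chain, gave 48.6, 8.33 and 17.3 CPM against 99.4, 35.1 and 82.4 CPM. Here the WT libraries sided with Tet2 KO: Ciita stood at 1.93, 2.02 and 1.85 CPM in WT, and the median of the 10 genes was 1.01 for Tet2 het over WT and 0.03 for Tet2 KO over WT.

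Markers of dendritic cells and macrophages, which carry much of the class II protein, were lower in part. In the list of 24 monocyte and dendritic genes the median was -0.37. At an unadjusted p of 0.05, 5 genes were lower and 1 higher, against 5.5% and 4.65% of all genes. None of the 24 passed with edgeR, DESeq2 or voom. Batf3 and Zbtb46, transcription factors of conventional dendritic cells, differed by -3.09 ± 0.72 and -1.43 ± 0.43. Batf3 stood at 0.152, 0.0661 and 0.0293 CPM in Tet2 KO against 1.14, 0.207 and 0.801 CPM in Tet2 het, a low level at which few counts carry the value. Siglech, a marker of plasmacytoid dendritic cells, stood at 4.68, 2.41 and 2.23 CPM against 6.15, 6.26 and 7.55 CPM (-1.11 ± 0.41). The groups did not overlap in these 3 genes. Ly6c2, a marker of monocytes and their precursors, was the 1 higher member at 513, 829 and 907 CPM against 334, 641 and 275 CPM (0.83 ± 0.29, adjusted p = 0.434).

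Of 12 resident macrophage genes 9 were below 0, and 6 had an unadjusted p under 0.05, all lower, against 5.5% of all genes. DESeq2 called 1, C1qb, and edgeR and voom called 0. C1qb, a chain of complement C1q made by macrophages, stood at 0.038, 0.0661 and 0.147 CPM in Tet2 KO and at 7.44, 0.413 and 1.40 CPM in Tet2 het (-4.66 ± 1.33). Tet2 het replicate 1 gave most of that level, as it did for C1qc at 3.03 CPM against 0.266 and 0.658 CPM in the other 2. Vcam1, an adhesion molecule of macrophages and stroma, and Adgre1, the F4/80 antigen, were above 0 at 0.75 and 0.33.

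**Figure D3:**
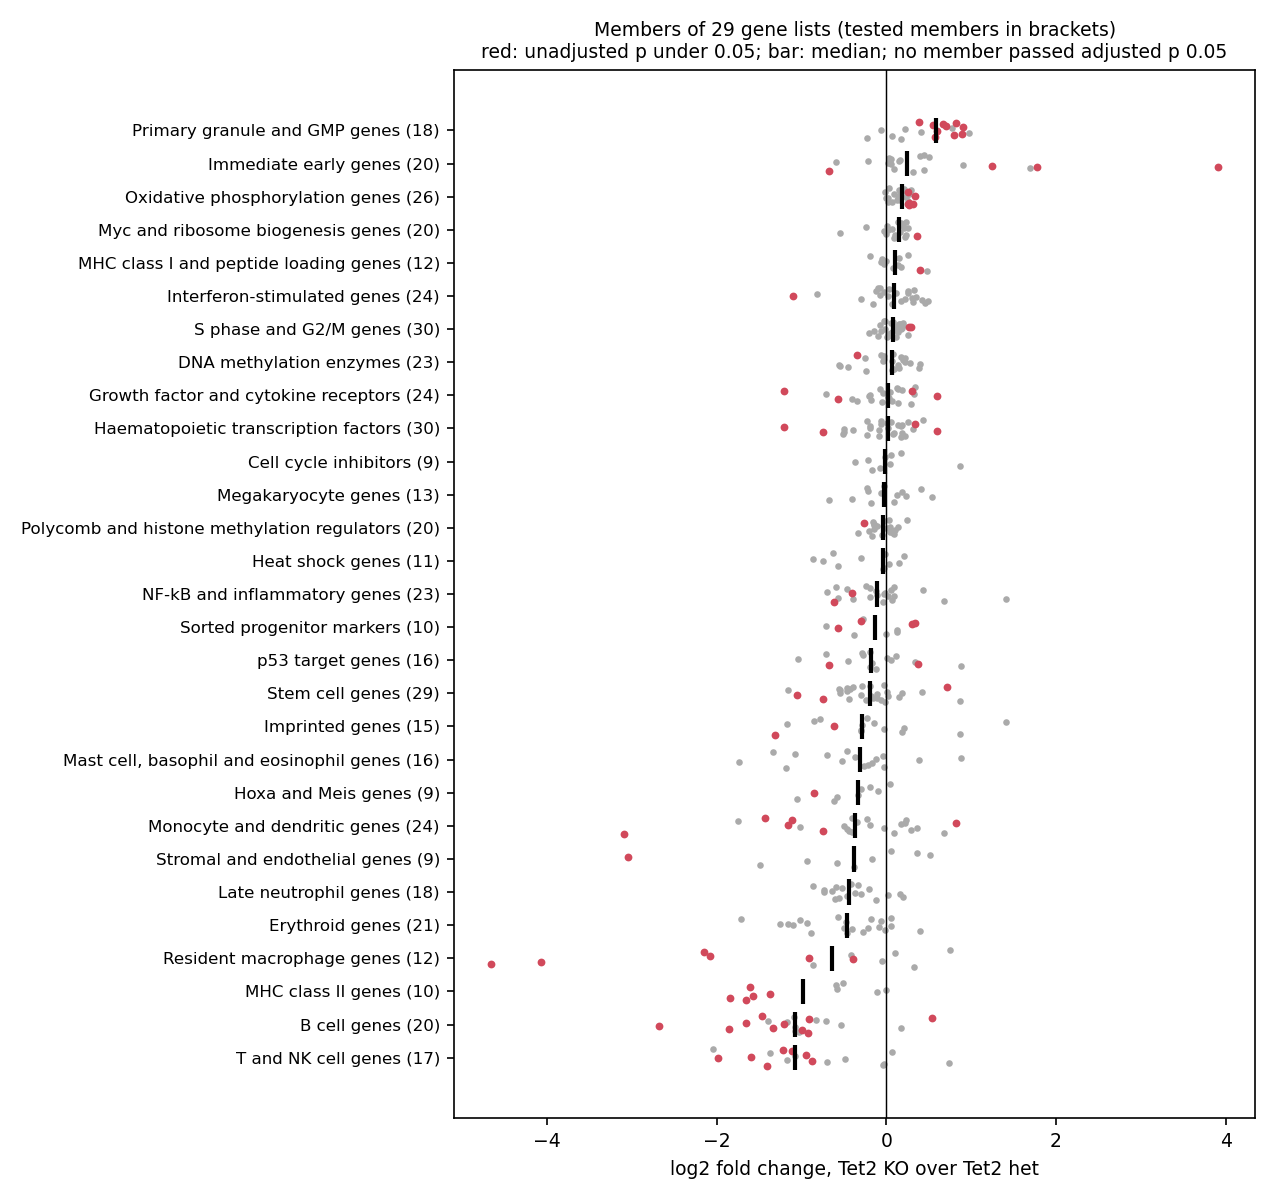
Log2 fold change of Tet2 KO over Tet2 het (horizontal axis) for the tested members of 29 gene lists (vertical axis, ordered by median). Points are genes, red where the unadjusted p is under 0.05, and black bars are medians, which run from -1.07 for T and NK cell genes and B cell genes to 0.58 for primary granule genes.

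Primary granule genes and other genes of granulocyte-monocyte progenitors had the highest median of the 29 lists plotted. Of 18 members 16 were above 0, with a median of 0.58. At an unadjusted p under 0.05, 10 were higher and 0 lower, and 3 had groups that did not overlap (Clec12a, Gfi1 and Nkg7). Over all genes 4.65% were higher at that p and 4.53% were higher without overlap. None of the 18 passed with edgeR or voom, and DESeq2 called 1, Ms4a3. Ms4a3, a surface protein of committed granulocyte-monocyte progenitors, stood at 81.4, 235 and 224 CPM in Tet2 KO and at 46.2, 149 and 89.1 CPM in Tet2 het (0.90 ± 0.21, adjusted p = 0.327). Tet2 KO was higher within each title range, by 0.82 and 0.99, but replicate 1 was low in both groups. Across the list 15 of 18 members were above 0 in both ranges (83.3%, against 31.6% of all genes).

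The serine proteases of primary granules shared a pattern across libraries. Elane, neutrophil elastase, stood at 598, 769 and 854 CPM in Tet2 KO and at 193, 679 and 316 CPM in Tet2 het (0.98 ± 0.45, adjusted p = 0.502). Ctsg, cathepsin G, stood at 299, 634 and 709 CPM against 154, 512 and 221 CPM (0.90 ± 0.33, adjusted p = 0.452), and Prtn3, proteinase 3, at 413, 465 and 583 CPM against 184, 422 and 233 CPM (0.83 ± 0.35, adjusted p = 0.482). Tet2 het replicate 2 exceeded the lowest Tet2 KO library in each, while Tet2 het replicates 1 and 3 lay below all Tet2 KO libraries. Nkg7, a granule protein, stood at 117, 123 and 122 CPM against 54.2, 105 and 66.6 CPM (0.70 ± 0.25, adjusted p = 0.432). Mpo, myeloperoxidase, the most abundant of them, gave 0.77 ± 0.37. Gfi1, a transcription factor that drives granulocytic commitment, stood at 43.4, 64.1 and 41.4 CPM against 25.6, 39.1 and 34.3 CPM (0.60 ± 0.18, adjusted p = 0.4).

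The median of the 18 primary granule genes was -0.38 for Tet2 het over WT and 0.09 for Tet2 KO over WT. The summed level of the list was 9059, 10311 and 10844 CPM in Tet2 KO, 4826, 9281 and 4887 CPM in Tet2 het and 10526, 7658 and 6369 CPM in WT. The WT range overlapped those of both other groups, and 2 of 3 Tet2 het libraries were below both. Later neutrophil genes, which mark maturation beyond the primary granule stage, pointed down: 15 of 18 were below 0 with a median of -0.44, and none had an unadjusted p under 0.05 or a call by edgeR, DESeq2 or voom. Their summed level was 63732, 64558 and 30661 CPM in Tet2 KO and 71921, 44650 and 77267 CPM in Tet2 het. Erythroid genes were below 0 in 18 of 21 with a median of -0.46, again with no unadjusted p under 0.05 and no call by those tools.

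**Figure D4:**
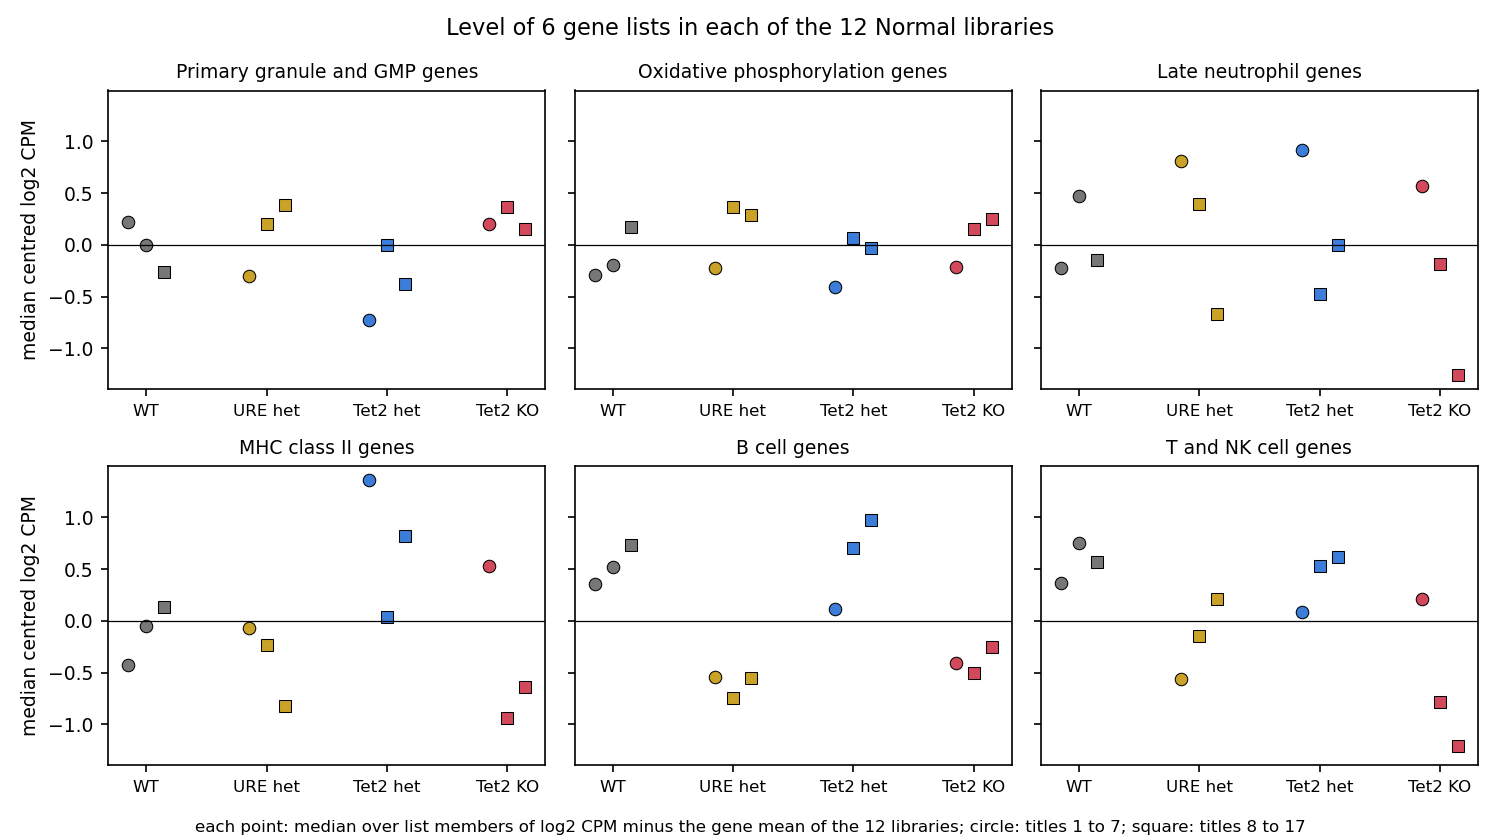
Level of 6 gene lists in each of the 12 Normal libraries, as the median over members of log2 CPM minus the mean of that gene over the 12 libraries (vertical axis), by genotype (horizontal axis). Circles are titles 1 to 7 and squares titles 8 to 17; for B cell genes all 3 Tet2 KO libraries lie below all 3 Tet2 het libraries, from -0.50 to -0.25 against 0.11 to 0.98, and URE het libraries lie lower still, from -0.74 to -0.54.

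Some of these list levels varied between the libraries of a group, and what single libraries add to the differences was not tested. Tet2 het replicate 1 was the highest of the 6 libraries in summed immunoglobulin (2857 CPM) and MHC class II genes (319 CPM) and the lowest in primary granule genes (4826 CPM). Without it the median of the 114 immunoglobulin genes was -1.45. Although lymphoid and erythroid cells had been sorted away, summed B cell genes gave 57.7 to 81.7 CPM in Tet2 KO and 82.3 to 116 CPM in Tet2 het, and erythroid genes 142 to 257 and 152 to 233 CPM. Tpsb2, a tryptase of mast cells, was at 0 in all 12 Normal libraries. The mast cell, basophil and eosinophil genes together still gave 191 to 323 CPM in Tet2 KO and 257 to 307 CPM in Tet2 het.

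Markers of the sorted progenitors gave no call. Kit, the receptor used in the sort, stood at 151, 186 and 175 CPM in Tet2 KO and at 100, 158 and 164 CPM in Tet2 het (0.30 ± 0.13, adjusted p = 0.481). Myb, a transcription factor of proliferating progenitors, gave 0.34 ± 0.12, and Flt3, a receptor of lymphoid-primed progenitors, -0.57 ± 0.23. Among 10 such markers 2 were higher and 2 lower at an unadjusted p of 0.05, against 4.65% and 5.5% of all genes. None of the 10 passed with edgeR, DESeq2 or voom. Of 29 stem cell genes 22 were below 0 with a median of -0.19; 1 was higher and 2 lower at an unadjusted p of 0.05, a share near the 10.2% of all genes, with no call by those tools. Mecom, a regulator of stem cell self-renewal, stood at 3.42, 4.73 and 5.39 CPM against 7.99, 6.50 and 13.5 CPM (-1.05 ± 0.37, adjusted p = 0.429), and Gata2 at 4.49, 3.40 and 4.75 CPM against 6.05, 6.14 and 8.75 CPM (-0.74 ± 0.31, adjusted p = 0.468). Hoxa9, a homeobox gene of immature cells, stood at 3.50, 4.26 and 5.16 CPM against 6.35, 7.2 and 9.78 CPM (-0.85 ± 0.37, adjusted p = 0.481). No library of one group reached the other in Mecom, Gata2 or Hoxa9. Of the 29 stem cell genes, 3 were lower and 1 higher without overlap, and of 9 Hoxa and Meis genes 1 was lower. Over all genes 6.08% were lower and 4.53% higher without overlap. The summed level of the stem cell list overlapped, at 331, 386 and 424 CPM in Tet2 KO and 346, 349 and 572.5 CPM in Tet2 het. The endothelial and stem cell receptor Tie1 was higher, at 8.29, 9.69 and 9.56 CPM against 4.51, 6.08 and 6.18 CPM (0.71 ± 0.24, adjusted p = 0.427).

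Tet2 RNA, counted over the whole gene on chromosome 3 (133463679 to 133545139, minus strand), was measured in both groups. Tet2 stood at 79.9, 80.5 and 86.0 CPM in Tet2 KO, at 92.5, 114 and 108 CPM in Tet2 het and at 132, 107 and 117 CPM in WT. The Tet2 KO libraries lay below all others, by -0.35 ± 0.14 against Tet2 het (adjusted p = 0.452). These counts do not check the allele, since no part of the gene was counted on its own. The related enzymes differed by less than their error, with Tet1 at -0.03 ± 0.20 and Tet3 at -0.06 ± 0.12. Of 23 genes that write, read or remove DNA methylation, 13 were above and 10 below 0 with a median of 0.07; Tet2 was the only 1 with an unadjusted p under 0.05, and none was called by edgeR, DESeq2 or voom. Spi1 also differed by less than its error, at 136, 62.7 and 52.0 CPM in Tet2 KO and 124, 53.9 and 60.5 CPM in Tet2 het (0.05 ± 0.13).

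Genes around Tet2 were counted on their own, since a targeted allele brings its flanking chromosome with it. Within 2 Mb of Tet2, 1 of 24 genes had an unadjusted p under 0.05 (4.17%), within 5 Mb 6 of 75 (8.0%) and within 10 Mb 15 of 115 (13%), against 10.2% of all genes. None was called by edgeR or voom. DESeq2 called Gm43430, 2.19 Mb from Tet2, as lower in Tet2 KO (log2 difference -1.05, adjusted p = 0.0338, DESeq2). The groups did not overlap for Gm43430.

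Among genes outside the immunoglobulin loci whose mean level reached 1 log2 CPM, the 10 higher and 10 lower with the smallest p did not pass with edgeR, where their adjusted p ran from 0.194 to 0.32, or with voom. DESeq2 called all 20, and edgeR without the filter on low counts called 10 of them. Of the 10 higher genes, Acp1, a low molecular weight phosphatase, stood at 75.0, 63.6 and 62.8 CPM in Tet2 KO and at 43.4, 41.5 and 36.3 CPM in Tet2 het (0.73 ± 0.12, adjusted p = 0.194). The WT libraries, at 78.4, 62.3 and 52.6 CPM, lay with Tet2 KO. Serpine2, an inhibitor of thrombin and other serine proteases, stood at 26.5, 25.1 and 17.1 CPM against 13.2, 12.3 and 13.5 CPM (0.81 ± 0.17, adjusted p = 0.233). Sdc2, a heparan sulphate proteoglycan of the cell surface, stood at 9.85, 21.6 and 11.8 CPM against 4.22, 7.32 and 6.95 CPM (1.22 ± 0.23, adjusted p = 0.194). In both of these the WT libraries sided with Tet2 het, at 12.7 to 13.2 CPM for Serpine2 and 3.64 to 5.17 CPM for Sdc2. Tfpi, the inhibitor of the tissue factor pathway, gave 0.86 ± 0.19, and Fggy, a carbohydrate kinase, 2.01 ± 0.45 at 3.54, 6.28 and 8.0 CPM against 1.64, 0.945 and 1.77 CPM. Dtx4, an E3 ligase linked to Notch, gave 0.96 ± 0.21, and the other 4 (Rnf217, B3gnt5, Arl1 and Nsun3) lay between 0.60 and 1.02.

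Of the 10 lower genes, Ahnak, a giant scaffold protein, stood at 203, 136 and 179 CPM in Tet2 KO and at 324, 256 and 269 CPM in Tet2 het (-0.72 ± 0.14, adjusted p = 0.194), with WT at 170, 135 and 131 CPM beside Tet2 KO. Mettl23, an arginine methyltransferase, stood at 10.4, 20.4 and 15.8 CPM against 34.7, 37.8 and 35.7 CPM (-1.28 ± 0.27, adjusted p = 0.258), while WT spread from 11.5 to 41.9 CPM. Prss12, a secreted serine protease, stood at 2.05, 5.98 and 4.19 CPM against 7.49, 12.5 and 11.4 CPM (-1.43 ± 0.28, adjusted p = 0.194). Dtnb, a dystrobrevin, stood at 13.7, 11.2 and 9.53 CPM against 20.4, 16.1 and 20.3 CPM (-0.73 ± 0.16, adjusted p = 0.293). Each of these 4 kept its groups apart. Arsg, a lysosomal sulphatase, and Mmp25, a membrane matrix metalloproteinase of neutrophils, differed by -1.12 ± 0.19 and -1.40 ± 0.26, with Tet2 KO replicate 1 at or above Tet2 het replicate 2 in both. The remaining lower genes were Prr33, Mctp2, Ablim1 and the mitochondrial serine transfer RNA mt-Ts1, from -1.28 to -0.89.

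**Figure D5:**
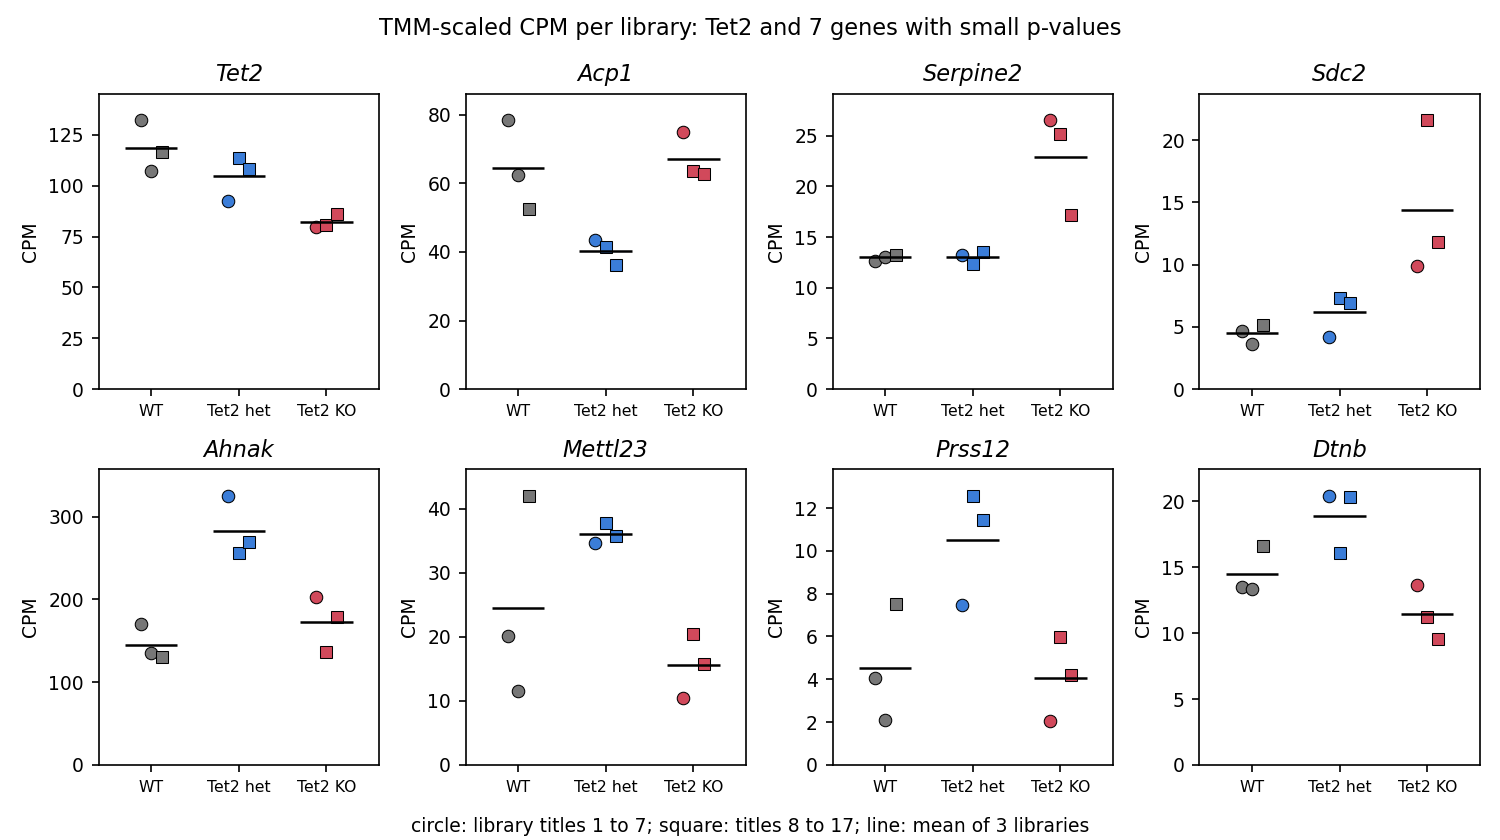
CPM per library of Tet2, 3 genes higher (Acp1, Serpine2, Sdc2) and 4 genes lower (Ahnak, Mettl23, Prss12, Dtnb) in Tet2 KO, none of which passed the adjusted test with edgeR or voom, while DESeq2 called the 7 other than Tet2. Grey is WT, blue Tet2 het and red Tet2 KO, with a line at the mean of 3 libraries, circles for titles 1 to 7 and squares for titles 8 to 17; WT lies with Tet2 KO for Acp1 and Ahnak and with Tet2 het for Serpine2 and Sdc2.

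Over these 20 genes, WT was placed by mean CPM, without the title range as a term. It was nearer to Tet2 KO for 6 of the 10 higher and 4 of the 10 lower genes. Tet2 het was nearer for the other 4 and 6. In the fit with that term, B3gnt5, Nsun3 and mt-Ts1 changed sides. Tet2 het and Tet2 KO over WT gave -0.53 and 0.13 for B3gnt5, -0.22 and 0.39 for Nsun3, and 0.35 and -0.62 for mt-Ts1. The groups were apart for 8 of the 10 higher and 6 of the 10 lower genes, against 4.53% and 6.08% of all genes. The choice of small p-values in the same comparison favours this, so the count is not a test. All 20 had the same sign in both title ranges, in which no library is shared, although the choice of small p-values with the range in the model favours that. Low genes reached small p-values too: Ctnnd2, a catenin of cell junctions, stood at 0.799, 0.562 and 0.557 CPM in Tet2 KO and 2.93, 2.81 and 3.29 CPM in Tet2 het (-2.24 ± 0.35, adjusted p = 0.172), and passed with voom and DESeq2. Klre1, a natural killer cell receptor, gave 0.152, 0.430 and 0.410 CPM against 1.04, 2.51 and 2.32 CPM (-2.65 ± 0.46, adjusted p = 0.194). Ikzf3, the lymphoid transcription factor Aiolos, gave 1.41, 0.694 and 0.616 CPM against 2.48, 2.42 and 2.89 CPM (-1.62 ± 0.33, adjusted p = 0.233). DESeq2 called Klre1 and Ikzf3 too, and Klre1 passed with edgeR without the filter. The groups did not overlap in Ctnnd2, Klre1 or Ikzf3, which were named after their values were seen.

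The lists of oxidative phosphorylation, cell cycle, interferon-stimulated and inflammatory genes had medians between -0.11 and 0.18. Oxidative phosphorylation genes were above 0 in 25 of 26 with a median of 0.18, and 6 had an unadjusted p under 0.05, all higher, Ndufb3 (0.34 ± 0.12) and Atp5c1 (0.25 ± 0.11) among them. Of 30 genes of S phase and mitosis 22 were above 0 with a median of 0.07; Mcm3 and Mcm4, parts of the replicative helicase, reached an unadjusted p under 0.05 at 0.29 ± 0.13 and 0.27 ± 0.12. Of 24 interferon-stimulated genes 15 were above 0 (median 0.09), and of 23 NF-kB and inflammatory genes 15 were below 0 (median -0.11), with 0 and 1 at an unadjusted p under 0.05 for higher and lower in the first list and 0 and 2 in the second. In the cell cycle, interferon and inflammatory lists the share at that threshold was below the 10.2% of all genes. None in these 4 lists passed with edgeR, DESeq2 or voom.

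Immediate early genes, transcribed within minutes of a stimulus or of handling, were above 0 in 17 of 20 with a median of 0.24. Fos stood at 264, 159 and 211 CPM in Tet2 KO, 206, 77.5 and 52.2 CPM in Tet2 het and 357, 874 and 90.6 CPM in WT, so the spread within WT exceeded the difference of 1.25 ± 0.52. Egr1 gave 1.69 ± 0.91. Btg2, an antiproliferative gene of the same class, was lower at 94.0, 78.7 and 54.1 CPM against 205, 91.6 and 91.7 CPM (-0.67 ± 0.20, adjusted p = 0.41). At an unadjusted p of 0.05, 3 of the 20 were higher and 1 lower, against 4.65% and 5.5% of all genes. None of the 20 was called by edgeR, DESeq2 or voom.

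The same Tet2 contrast exists in cells with 1 deleted URE copy, in compound mutants that share no library with those above. The difference between the 2 contrasts passed for 0 of 19951 genes with edgeR (0%, 1516 at an unadjusted p under 0.05, smallest adjusted p 0.1358), for 58 with DESeq2 and for 0 with voom. Without URE het Tet2 het replicate 1, which leaves that group 1 library, it passed for 1124 genes with edgeR. The compound contrast alone called 14 genes (0.0702%). Of 18282 genes tested in both, 61.3% had the same sign in the 2 contrasts, and of the 1856 with an unadjusted p under 0.05 in Tet2 KO against Tet2 het, 73.9% did. Of the 10 higher and 10 lower genes with the smallest p, 9 and 6 kept their sign. Acp1 gave 92.4, 66.3 and 53.2 CPM in URE het Tet2 KO and 50.2 and 22.9 CPM in URE het Tet2 het, without overlap.

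By list, the B cell genes were below 0 in the compound contrast for 18 of 20 (median -2.48), the MHC class II genes for 9 of 10 (median -2.24) and the 114 immunoglobulin genes for 89 (median -1.77). Over all genes 10179 of 18282 were below 0 there, with a median of -0.09. The primary granule genes divided, 9 above and 9 below (median 0.16), against 16 and 2 in the cells with an intact URE. Late neutrophil genes were above 0 in 13 of 18 (median 0.18), opposite in sign to the median of -0.44 with an intact URE. No gene of these 5 lists passed the test of the difference with edgeR or voom. DESeq2 called Cd22 of the B cell list and 4 immunoglobulin genes (Ighv10-3, Ighv2-2, Ighv3-8 and Igkv3-10), and Cd22 also passed with edgeR without the filter on low counts. The compound groups were labelled leukaemic and held 2 and 3 libraries. The 2 URE het Tet2 het libraries were far apart in Ciita (0.098 and 1.85 CPM), H2-Ab1 (0.715 and 5.22 CPM) and Il7r (0.065 and 2.42 CPM). In these genes URE het Tet2 het replicate 1 did not lie above all URE het Tet2 KO libraries. They were closer in Cd79a (0.520 and 0.318 CPM) and Fcrla (0.195 and 0.170 CPM), and most of these levels rest on few counts.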

How the data were processed

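RNA-seq counts of 17 mouse libraries were used. The authors deposited raw counts per gene, not normalized. Alignment was with STAR to GRCm38, per the submitters' processing notes; aligner version, annotation, counter and strandedness: not given in the sources used here. Of 47643 gene rows, 47224 matched GENCODE vM21; 48361 enhancer-labelled rows were left out. Genes with enough counts (filterByExpr, minimum count 10, minimum total 15) in the 12 Normal libraries were tested with edgeR 4.0.16 (R 4.3.3; TMM scaling, robust quasi-likelihood F test, 7 residual degrees of freedom) with 1 mean per genotype and a term for title range 1 to 7 or 8 to 17. P-values are two-sided and were adjusted by Benjamini-Hochberg at 0.05. SEs were derived from the log2 fold change and the F statistic (absolute value divided by the root of F). The difference between contrasts was fitted on all 17 libraries. Scripts were tested on simulated counts.

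The comparison and the gene lists were chosen with earlier results of these data known. Named genes were Tet2, Tet1, Tet3, Spi1, the 10 genes with the smallest p in each direction at a mean of at least 1 log2 CPM (no immunoglobulin, T cell receptor, predicted, clone-named or sex-linked genes or pseudogenes), and 2 members of each list; immunoglobulin and antibody-secreting genes and further list members were named after their values were seen. Alternatives were DESeq2 1.42.0 and its size factors, limma 3.58.1 voom, no filter, non-robust edgeR, other sets of libraries, no title range, a term for sex, and leaving out each library. Libraries held 21.1 M or more gene counts, and levels under 1 CPM rest on few counts.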

Additional observations from a re-analysis of the deposited data

How the results depend on the processing

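The count of 1 gene was the same with DESeq2 size factors, non-robust edgeR and a term for sex. It was 23 (6 higher, 17 lower) without the filter on low counts, 108 (25 higher, 83 lower) with the DESeq2 test, 4 with limma voom, 4 with the 6 libraries alone and the title range, and 7 with libraries 8 to 17 alone. It was 0 without the title range, with all 17 libraries with or without it, and with the 6 libraries alone without it. Leaving out 1 library gave 0 to 2. Igkv1-110 passed in 17 of 24 alternatives (log2 fold change -3.80 to -3.25). For the difference between contrasts, no filter gave 2 and the DESeq2 test 58. Leaving out 1 library gave 0 to 1124 there, with 1124 when URE het Tet2 het replicate 1 was left out and 44 when replicate 2 was, each leaving 1 library assumed to vary like the others, and 5 without URE het Tet2 KO replicate 1.

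Medians of the B cell, T and NK cell, MHC class II, macrophage, late neutrophil, erythroid and immunoglobulin genes were below 0, and those of primary granule, oxidative phosphorylation and immediate early genes above 0, in 24 of 24 alternatives. The counts at an unadjusted p of 0.05 held less well: over the alternatives they went down to 1 for primary granule genes (from 10), 3 for B cell (from 9 lower), 1 for T and NK cell (from 7) and 0 for MHC class II (from 5), macrophage (from 6), oxidative phosphorylation (from 6) and immediate early genes (from 3 higher). The T and NK median reached -1.80 with libraries 8 to 17 alone and -1.62 without Tet2 KO replicate 1. Over 3084 pairs of a named gene and an alternative, 10 were reversed, in 5 genes: Tet1 (0.019 with sex; -0.20 to 0.20 when 1 library was left out), Spi1 (-0.031 without Tet2 KO replicate 1, up to 0.15), Ighm (-1.25 to 0.15), Ighv1-81 (-0.57 with voom; -2.75 to 3.47) and Igkv4-59 (-1.22 with voom, -0.014 with sex; -3.80 to 2.95); the cause was not tested. No paired analysis was possible because the labels give the groups no shared replicate numbers.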

Other observations

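Tet2 KO replicate 3 stood apart in its immunoglobulin variable segments, a pattern noticed after the values were seen. Ighv1-81 reached 70.2 CPM there, against 1.33 and 0.430 CPM in the other 2 Tet2 KO libraries and 2.37 to 9.62 CPM in Tet2 het. It took 37.1% of the counts of all variable segments in that library, the largest share held by any single segment in the 12 Normal libraries. Igkv4-59, a light chain segment, reached 56.6 CPM against 0.494 and 0.132 CPM in the other 2 and 1.24 to 5.58 CPM in Tet2 het. The log2 differences of Tet2 KO over Tet2 het were 2.56 ± 1.82 for Ighv1-81 (adjusted p = 0.653, edgeR) and 2.06 ± 2.16 for Igkv4-59 (adjusted p = 0.769, edgeR), and both became negative without that library. In the same library Ighm stood at 519 CPM, while Igha stood at 12.5 CPM. Across the 12 Normal libraries the leading variable segment otherwise took 5.6% to 19.1% of the variable counts.

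Fewer variable segments were seen above 1 CPM in Tet2 KO, with 18, 8 and 19 segments, than in Tet2 het, with 76, 35 and 49. WT gave 21, 32 and 55, and URE het 35, 13 and 9. The difference in number was not tested.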
